A study of Mus musculus with 88 samples.

Results

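Transcript levels of 7 genes were followed through early differentiation of mouse embryonic stem cells: the simple epithelial keratins Krt7, Krt8, Krt18 and Krt19, the AP-2 transcription factors Tfap2a and Tfap2c, and the ETS factor Elf5. The genes were taken by name, in a choice made with earlier results of these data known, and were 7 of 53697 genes in the mesoderm table, 7 of 54393 in the endoderm table, 7 of 26007 in the bulk embryoid body (EB) table and 6 of 15830 in the table of unique molecular identifiers (UMIs) of single cells, where Elf5 had no row.

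The study asked how losing single subunits of Polycomb repressive complex 2 (PRC2), which writes H3K27me3 on silenced developmental genes, changes the exit from pluripotency. MTF2 belongs to the PRC2.1 form, JARID2 to the PRC2.2 form, and EED to the core of both. In the directed series, E14 WT, Mtf2 null and Jarid2 null cells grown in serum with LIF were sequenced undifferentiated and after 5, 24 and 48 hours, with 2 libraries for each genotype and time in each of 2 protocols. The mesoderm protocol gave Activin A, BMP4, CHIR99021 and FGF2 for 24 hours and then A-83-01 with BMP4, and the endoderm protocol gave Activin A, CHIR99021 and FGF2 and then Activin A with DM3189. In the bulk EB series, lines labelled null for Mtf2, Jarid2 or Eed were each set beside a WT line (Pcl1-3, JM8 and J1, respectively) on days 0, 2, 4 and 7. Day 0 was monolayer culture by the column names, and the later days were EBs differentiated by removal of LIF. Single cells came from EBs of WT and of the Mtf2, Jarid2 and Eed null lines on days 0, 4, 7 and 10, with 1 library for each genotype and day. Every mutant was represented by 1 line, and the labels gave E14 as the strain of all directed and single-cell libraries although the study names other WT lines as the matched controls of the mutants, so that genotype and line cannot be told apart in those comparisons.

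Keratins 8 and 18 pair into the intermediate filaments of simple, single-layered epithelia, and are among the first filament proteins made in the trophectoderm, the outer layer of the blastocyst. Keratin 19 (type I) and keratin 7 (type II) join them in many ductal, placental and extraembryonic epithelia. TFAP2C and ELF5 are regulators of the trophoblast lineage, TFAP2C is also made in germ cells, and TFAP2A acts in trophoblast, surface ectoderm and neural crest. Simple epithelial keratins are also made by visceral endoderm, mesothelium and definitive endoderm, so that none of the 7 genes marks a single cell type.

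On the GRCm38 build, 3 of the 4 keratin genes stood on chromosome 15: Krt7 at chr15:101411043-101430313 on the plus strand, Krt8 at chr15:101996698-102004482 on the minus strand and Krt18 at chr15:102028180-102032027 on the plus strand. Krt8 and Krt18 were neighbours with their 5′ ends facing each other across 23697 bases. Krt19 stood at chr11:100140810-100148665 (minus), Tfap2a at chr13:40715302-40738376 (minus), Tfap2c at chr2:172549593-172558622 (plus) and Elf5 at chr2:103411688-103450989 (plus). The promoters of the neighbouring pair, whose transcripts moved together in most comparisons, are shown with that of Krt7, which moved least of the keratins in the directed series. Each is 300 bases of RefSeq sequence (GRCm38.p6), from 250 before to 50 after the transcription start, and capitals mark matches to the palindromic AP-2 type motif GCCNNNGGC, which reads the same on both strands.

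Krt8 (chr15:102004293-102004592, minus strand): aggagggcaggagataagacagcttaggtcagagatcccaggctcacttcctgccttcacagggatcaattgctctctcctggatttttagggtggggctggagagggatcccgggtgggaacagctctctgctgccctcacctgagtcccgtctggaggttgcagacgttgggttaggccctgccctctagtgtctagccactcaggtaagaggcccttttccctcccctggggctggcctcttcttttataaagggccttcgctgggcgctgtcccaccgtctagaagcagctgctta
Krt18 (chr15:102027966-102028265, plus strand): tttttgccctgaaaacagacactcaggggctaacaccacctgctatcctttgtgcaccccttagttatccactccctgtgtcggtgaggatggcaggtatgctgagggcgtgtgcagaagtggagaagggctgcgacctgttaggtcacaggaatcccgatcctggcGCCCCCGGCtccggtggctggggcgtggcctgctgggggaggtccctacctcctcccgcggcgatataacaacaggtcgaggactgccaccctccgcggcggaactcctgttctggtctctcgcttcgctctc
Krt7 (chr15:101412153-101412452, plus strand): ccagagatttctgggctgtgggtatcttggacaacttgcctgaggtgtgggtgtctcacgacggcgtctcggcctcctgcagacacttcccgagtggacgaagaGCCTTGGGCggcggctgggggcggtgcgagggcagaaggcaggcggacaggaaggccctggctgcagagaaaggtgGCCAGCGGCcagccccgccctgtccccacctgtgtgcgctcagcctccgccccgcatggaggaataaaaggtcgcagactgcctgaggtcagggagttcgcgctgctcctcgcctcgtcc

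The motif occurred once in the Krt18 window, 83 bases before the start, 2 times in the Krt7 window, the first 146 bases before the start, and was not in the Krt8 window. Of 32851 promoter windows of this length, 16.6% held the motif at least once and 2.81% held it 2 or more times. Neither the 2 Tfap2a nor the 2 Elf5 windows held it, and Krt19 and Tfap2c had no window in the table used. The windows of Krt7 and Krt18 held 21 and 17 CG dinucleotides and that of Krt8 held 6, against a median of 7 over all windows. These matches are letters in a window and say nothing of binding.

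Directed libraries held 9111880 to 16898264 assigned reads in the mesoderm series and 9889592 to 16372804 in the endoderm series. Levels are given as CPM, the reads of a gene scaled to the assigned reads of its library after TMM scaling, so that 1 CPM stood for about 9 to 17 reads. Mtf2 transcript was 30.2 to 38.2 CPM in Mtf2 null libraries of the mesoderm series against 206 to 499 CPM in WT, and 31.1 to 36.8 against 218 to 509 CPM in the endoderm series. Jarid2 transcript was not lost in Jarid2 null libraries (189 to 622 CPM in mesoderm, 318 to 661 CPM in WT), so this transcript did not check that label. In WT cells after 48 hours of the endoderm protocol, the definitive endoderm marker Sox17 was at 0.173 and 0.377 CPM and Foxa2 at 0.346 and 0 CPM, so that these libraries held next to none of either defining marker of the cell type the protocol is named for. At 48 hours of the mesoderm protocol Gata2 was between 15.7 and 27.6 CPM in all genotypes. Gata2 is made in both trophoblast and lateral mesoderm, so its level alone does not check the cell type reached. The 2 libraries of a group are described by the authors as technical duplicates, so the p-values below measure only the spread between libraries.

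Undifferentiated Mtf2 null cells held more Krt8, Krt18 and Tfap2c transcript than WT cells. Krt8 was at 10.1 and 13.7 CPM in the WT libraries of the mesoderm series and at 12.8 and 11.2 CPM in those of the endoderm series, against 27.6, 39.2, 32.8 and 39.7 CPM in Mtf2 null. Krt18, its filament partner, was at 5.32, 4.69, 4.93 and 3.94 CPM in WT and at 17.4, 28, 17.9 and 26.3 CPM in Mtf2 null. Tfap2c was at 21, 15.1, 22.1 and 14.3 CPM in WT and at 49.7, 51.4, 49.3 and 50.7 CPM in Mtf2 null. For each of these genes all 4 Mtf2 null libraries lay above all 4 WT libraries. The share of all genes separated in this way was not counted, so the separation is only a description. Over the 4 libraries of a genotype the level rose from 12.0 ± 1.59 to 34.8 ± 5.73 CPM for Krt8, from 4.72 ± 0.583 to 22.4 ± 5.54 CPM for Krt18 and from 18.1 ± 3.97 to 50.3 ± 0.974 CPM for Tfap2c (mean ± SD, n = 4). The log2 differences were 1.54 ± 0.14, 2.25 ± 0.17 and 1.48 ± 0.12 (± SE), with adjusted p = 3.2e-07, 3.4e-08 and 7.7e-08 by the edgeR quasi-likelihood test. A difference was called here, as by the authors' thresholds, at an adjusted p below 0.001 and a log2 difference above 1 in size, which 14.7% of the 16655 genes tested met. Same-numbered undifferentiated libraries of the 2 series deviated together (r = 0.62 in WT, 0.46 in Mtf2 null and 0.51 in Jarid2 null over 9085 genes), so they are not independent. With them summed to 2 samples per genotype the log2 differences were 1.58 for Krt8 (adjusted p = 5.0e-06), 2.29 for Krt18 (adjusted p = 1.1e-06) and 1.52 for Tfap2c (adjusted p = 6.8e-06).

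Krt19 followed the same direction with a smaller difference, 8.70 ± 0.767 CPM in Mtf2 null and 4.97 ± 1.43 CPM in WT (SD, n = 4), which was not called (log2 0.82 ± 0.19, adjusted p = 1.7e-03). Krt7 was at 2.49 to 3.92 CPM in Mtf2 null and 2.56 to 3.47 CPM in WT, and the groups overlapped. Tfap2a was between 0.167 and 1.23 CPM in every undifferentiated library and fell below the filter on low counts in the pooled fit. Elf5 was at 1.97 to 4.43 CPM in Mtf2 null and 1.48 to 6.18 CPM in WT, and it differed more between the 2 series than between genotypes, with WT at 1.48 and 2.13 CPM in the mesoderm series and 4.26 and 6.18 CPM in the endoderm series. Scaled to the length of merged exons, WT cells held Krt8 at 6.12 CPM per kb, Tfap2c at 4.92, Krt18 at 3.28 and Krt19 at 2.68 CPM per kb, with Elf5 (0.598), Krt7 (0.407) and Tfap2a (0.147) lower. In Mtf2 null cells Krt8 (17.8 CPM per kb), Krt18 (15.6) and Tfap2c (13.7) all stood above Krt19 (4.69).

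Undifferentiated Jarid2 null cells gave no call for any of the 6 genes that passed the filter, against 1.15% of all genes tested. Krt8 was at 24.4, 18.1, 22.4 and 17.1 CPM, between the WT and Mtf2 null levels, with a log2 difference from WT of 0.75 ± 0.15 (adjusted p = 2.3e-03). Krt19 went the other way, at 2.24, 1.82, 2.91 and 2.84 CPM, all below the lowest WT library at 3.75 CPM (log2 −1.02 ± 0.21, adjusted p = 2.9e-03). This separation was not counted over all genes either. DESeq2 called 1 of the 6 genes and edgeR none, with 3 of the 6 at an unadjusted p below 0.05.

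**Figure D1:**
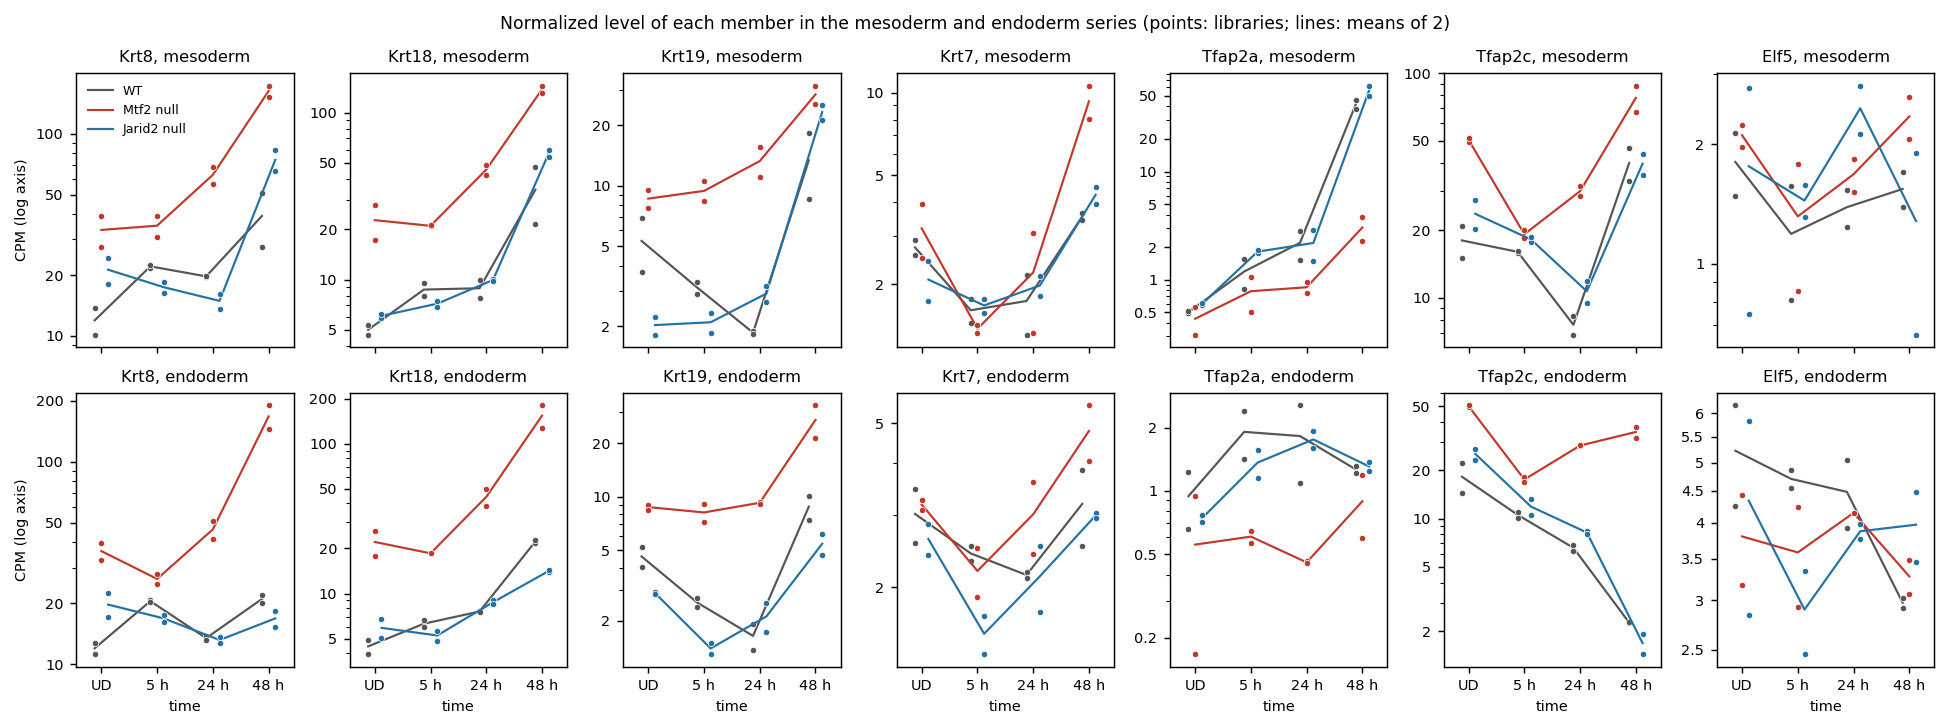
Transcript levels of the 7 genes in the directed series, in CPM on a log axis against hours of differentiation, for the 3 genotypes in the mesoderm and endoderm protocols. Points are single libraries and lines join the means of 2; Krt8 and Krt18 in Mtf2 null lie above WT at all times, and Tfap2a reaches 37.8 to 62.1 CPM only in the 48 hour mesoderm libraries of WT and Jarid2 null.

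In the mesoderm series WT cells gained Krt18, Krt8, Tfap2a and Tfap2c by 48 hours. Krt18 was at 5.32 and 4.69 CPM undifferentiated, 9.48 and 7.94 at 5 hours, 9.94 and 7.8 at 24 hours and 21.5 and 47.5 CPM at 48 hours. Krt8 was at 10.1 and 13.7, 21.7 and 22.5, 19.6 and 19.8, and 27.5 and 50.8 CPM at the same times. In both keratins the larger part of the rise fell in the second day, and the 2 libraries at 48 hours lay far apart in both. Against undifferentiated cells the log2 change at 48 hours was 2.78 ± 0.29 for Krt18 (adjusted p = 3.6e-07) and 1.70 ± 0.25 for Krt8 (adjusted p = 2.2e-05). Without the first undifferentiated WT library the Krt8 change was 1.51 and was no longer called (adjusted p = 1.1e-03). In this comparison 4 of the 7 genes were called, all upward, where 8.64% of 18361 genes were called.

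Tfap2a had the steepest course of the 7 genes in WT mesoderm. It was at 0.493 and 0.511 CPM undifferentiated, 0.813 and 1.57 at 5 hours, 1.54 and 2.84 at 24 hours and 45.5 and 37.8 CPM at 48 hours, a mean 83.0 times the starting level. The log2 change was 6.34 ± 0.36 (adjusted p = 1.0e-10). Tfap2c first fell, from 21 and 15.1 CPM to 6.87 and 8.32 CPM at 24 hours (log2 −1.23 ± 0.22, adjusted p = 1.7e-04, where 6.96% of genes were called), and stood at 33.1 and 46.7 CPM at 48 hours (log2 1.15 ± 0.19 against undifferentiated, adjusted p = 8.4e-05). Neither Tfap2c call held in all repeats with 1 library left out: the 24 hour change was −0.97 without the first undifferentiated library and the 48 hour change was 0.89 without the second 48 hour library. Krt19 passed through a low of 1.9 and 1.82 CPM at 24 hours and was at 8.56 and 18.3 CPM at 48 hours, and Krt7 stayed between 1.31 and 3.66 CPM. Of all genes tested, 5.57% were called upward by 48 hours in WT. Of the 14 other trophoblast genes listed, 9 passed the filter and 5 rose by that time. They were Gata3 (log2 5.21), Hand1 (5.13), Esx1 (3.85) and Gata2 (2.25), transcription factors made in trophoblast, of which Gata2, Gata3 and Hand1 are also made in lateral mesoderm, and Eomes (1.64), which is also a primitive streak gene.

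Mtf2 null cells at 48 hours of the mesoderm protocol held more Krt8 and Krt18 than WT and less Tfap2a. At 48 hours Krt8 was at 173 and 152 CPM against 27.5 and 50.8 CPM in WT, and Krt18 at 145 and 131 CPM against 21.5 and 47.5 CPM. Both Mtf2 null libraries lay above both WT libraries for each gene, a separation that was not counted over all genes. Tfap2a was at 2.27 and 3.8 CPM against 45.5 and 37.8 CPM in WT, a mean 13.7 times lower. These 3 were the calls at 48 hours (Krt8 log2 2.06 ± 0.22, adjusted p = 5.5e-07; Krt18 2.01 ± 0.23, adjusted p = 1.5e-06; Tfap2a −3.76 ± 0.27, adjusted p = 1.9e-09), where 6.82% of genes were called. Tfap2c was at 88.1 and 67.4 CPM against 33.1 and 46.7 CPM, just under the fold limit (log2 0.97 ± 0.18, adjusted p = 3.1e-04). Krt19 was at 31.5 and 25.5 CPM (log2 1.10 ± 0.27, adjusted p = 3.9e-03) and Krt7 at 10.6 and 8 CPM (log2 1.39 ± 0.30, adjusted p = 1.3e-03), and neither was called. Without the second WT library at 48 hours, Krt19 (log2 1.73, adjusted p = 1.2e-04) and Tfap2c (log2 1.23, adjusted p = 1.9e-04) were called as well.

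Within the Mtf2 null genotype, 5 of the 7 genes rose from undifferentiated cells to 48 hours, where 6.28% of genes were called: Tfap2a (log2 2.77 ± 0.48), Krt18 (2.61 ± 0.25), Krt8 (2.28 ± 0.23), Krt19 (1.72 ± 0.28) and Krt7 (1.53 ± 0.31). Tfap2a thus rose 6.97 times from its low start and stayed far below the WT level. The calls on Krt7, Krt19 and Tfap2a each failed in 3 or 4 repeats with 1 of the 4 libraries left out, with log2 changes of 1.21 to 1.90, 1.56 to 1.84 and 2.34 to 3.26.

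At 24 hours the Mtf2 null difference was called for Krt19 as well. Krt19 was at 11 and 15.6 CPM against 1.9 and 1.82 CPM in WT (log2 2.84 ± 0.35, adjusted p = 3.7e-06), the largest difference of the 7 genes at that time. Krt18 (42.5 and 48.6 against 9.94 and 7.8 CPM), Krt8 (56.5 and 68.7 against 19.6 and 19.8 CPM) and Tfap2c (28.3 and 31.4 against 6.87 and 8.32 CPM) were called too, with log2 differences of 2.37, 1.67 and 1.97, so that 4 of 7 genes were called where 5.72% of all genes were. At 5 hours none of the 7 was called where 7.56% of genes were, with Krt19 (log2 1.61 ± 0.33, adjusted p = 1.0e-03) and Krt18 (1.26 ± 0.28, adjusted p = 1.7e-03) nearest to the limits, with 3 of the 7 at an unadjusted p below 0.05 and 2 called by DESeq2. At that time Tfap2c had fallen in Mtf2 null from 49.7 and 51.4 CPM to 20 and 18.4 CPM (log2 −1.40 ± 0.19, adjusted p = 1.1e-05, with 6.06% of genes called in this change), close to the WT libraries at 15.9 and 16.2 CPM. In undifferentiated cells of the mesoderm series alone, the calls were Krt18, Krt8 and Tfap2c, where 11.1% of genes were called, and Krt8 was not called without the second Mtf2 null library (log2 1.19, adjusted p = 3.7e-03) or the first WT library (log2 1.29, adjusted p = 3.6e-03).

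Jarid2 null cells at 48 hours of the mesoderm protocol held Krt8 at 65.5 and 82.9 CPM and Krt18 at 53.9 and 60 CPM, above both WT libraries. Neither was called (Krt8 log2 0.93 ± 0.22, adjusted p = 0.028, and Krt18 0.74 ± 0.23, adjusted p = 0.12). This separation was not counted over all genes, and at 5 and 24 hours both Jarid2 null libraries lay below both WT libraries for Krt8. The call on Krt18 hung on 1 WT library: without the second WT library at 48 hours its log2 difference was 1.40 (adjusted p = 7.6e-04). Tfap2a reached 50.1 and 62.1 CPM, slightly above the 45.5 and 37.8 CPM of WT (log2 0.43, 95% interval −0.05 to 0.91). Within the genotype, Tfap2a (log2 6.54), Krt19 (3.51), Krt18 (3.23) and Krt8 (1.81) all rose from undifferentiated cells to 48 hours, where 8.5% of genes were called. Krt19 went from 2.24 and 1.82 to 25.3 and 21.3 CPM, a mean 11.5 times the starting level. Over both protocols and all times, 0 of 56 comparisons of Jarid2 null with WT were called by edgeR and 0 by DESeq2, with 13 at an unadjusted p below 0.05; the background at the 4 times was 0.37, 0, 1.97 and 0.169% of genes in the mesoderm series and 0.742, 0.0363, 0.0312 and 0.125% in the endoderm series. Of the 56 comparisons of Mtf2 null with WT, 23 were called, 17 of 32 upward for keratins, and 5 upward and 1 downward of 24 for the 3 transcription factors, where 5.72 to 11.1% of all genes were called at the single times.

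In WT cells of the endoderm series Krt18 rose and Tfap2c fell, and Tfap2a stayed low. WT Krt8 was at 12.8 and 11.2 CPM undifferentiated and 20 and 22 CPM at 48 hours, below the fold limit (log2 0.81 ± 0.17, adjusted p = 9.8e-04). Krt18 rose from 4.93 and 3.94 CPM to 21.7 and 22.8 CPM (log2 2.33 ± 0.23, adjusted p = 7.9e-08). Tfap2c fell at each step, from 22.1 and 14.3 to 11 and 10.1, then 6.32 and 6.84, and then 2.25 and 2.26 CPM (log2 −3.01 ± 0.22 at 48 hours, adjusted p = 1.2e-09). Tfap2a stayed at 0.656 to 2.56 CPM in all 8 WT libraries. Krt18 and Tfap2c were the 2 genes called in WT at 48 hours, where 8.15% of 19261 genes were called.

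In Mtf2 null cells of the endoderm series all of Krt8, Krt18, Krt19 and Tfap2c were above WT at 48 hours, where 10.5% of genes were called. Krt8 was at 190.1 and 144 CPM against 20 and 22 CPM in WT, a mean 7.96 times higher (log2 2.99 ± 0.15, adjusted p = 1.6e-12). Krt18 was at 182 and 128 CPM against 21.7 and 22.8 CPM, 6.95 times higher (log2 2.80 ± 0.18, adjusted p = 4.5e-11). The mesoderm Mtf2 null libraries at 48 hours, at 152 and 173 CPM for Krt8 and 131 and 145 CPM for Krt18, lay within the range of these endoderm libraries. Tfap2c, which WT cells had almost lost, was at 37.3 and 31.8 CPM against 2.25 and 2.26 CPM, 15.3 times higher (log2 3.93 ± 0.21, adjusted p = 2.2e-12). Krt19 was at 32.8 and 21.4 CPM against 7.45 and 10.2 CPM (log2 1.62 ± 0.21, adjusted p = 3.1e-06). Krt7, at 5.54 and 4.05 against 2.51 and 3.86 CPM, was not called (log2 0.59, adjusted p = 0.094), and Tfap2a was at 0.599 and 1.19 CPM.

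Within Mtf2 null cells of this series Krt18 (log2 2.81 ± 0.18), Krt8 (2.21 ± 0.15) and Krt19 (1.63 ± 0.21) rose from undifferentiated cells to 48 hours, 3 of 7 genes where 8.93% were called, and Tfap2c changed by −0.53 ± 0.15 (adjusted p = 6.3e-03).

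The same 4 genes were called at 24 hours in Mtf2 null against WT, and fewer at the other times. At 24 hours Krt18 (log2 2.54 ± 0.19), Krt19 (2.47 ± 0.27), Tfap2c (2.11 ± 0.17) and Krt8 (1.78 ± 0.16) were called where 6.58% of genes were, and at 5 hours Krt19 (1.69 ± 0.26) and Krt18 (1.56 ± 0.21) where 7.61% were. The 5 hour call on Krt19 was lost without the first WT library (adjusted p = 1.8e-03) or the first Mtf2 null library (adjusted p = 1.3e-03). In undifferentiated cells of this series Krt18 (2.32 ± 0.23), Krt8 (1.59 ± 0.17) and Tfap2c (1.46 ± 0.16) were called where 11% were. The median log2 difference over the 7 genes in undifferentiated cells and at 5, 24 and 48 hours was 0.92, 0.36, 1.78 and 1.62, with medians over all genes tested within 0.05 of 0. In the mesoderm series it was 0.71, 0.26, 1.67 and 1.10, again with medians over all genes within 0.03 of 0.

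Jarid2 null cells of the endoderm series gave no call against WT. Krt8 was at 15.3 and 18.4 CPM at 48 hours and Krt18 at 13.9 and 14.4 CPM, both below the WT libraries, with log2 differences of −0.32 (adjusted p = 0.26) and −0.65 (adjusted p = 0.037). Separation of this kind was not counted over all genes. Tfap2c fell from 27.3 and 23.2 CPM to 1.93 and 1.44 CPM (log2 −3.90 ± 0.21, adjusted p = 1.3e-11) and Krt18 rose (1.25 ± 0.21, adjusted p = 7.0e-05), 2 of 7 genes where 8.5% were called. The Krt18 call was lost without the second 48 hour library (1.21, adjusted p = 1.3e-03) or the second undifferentiated library (1.07, adjusted p = 3.2e-03).

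**Figure D2:**
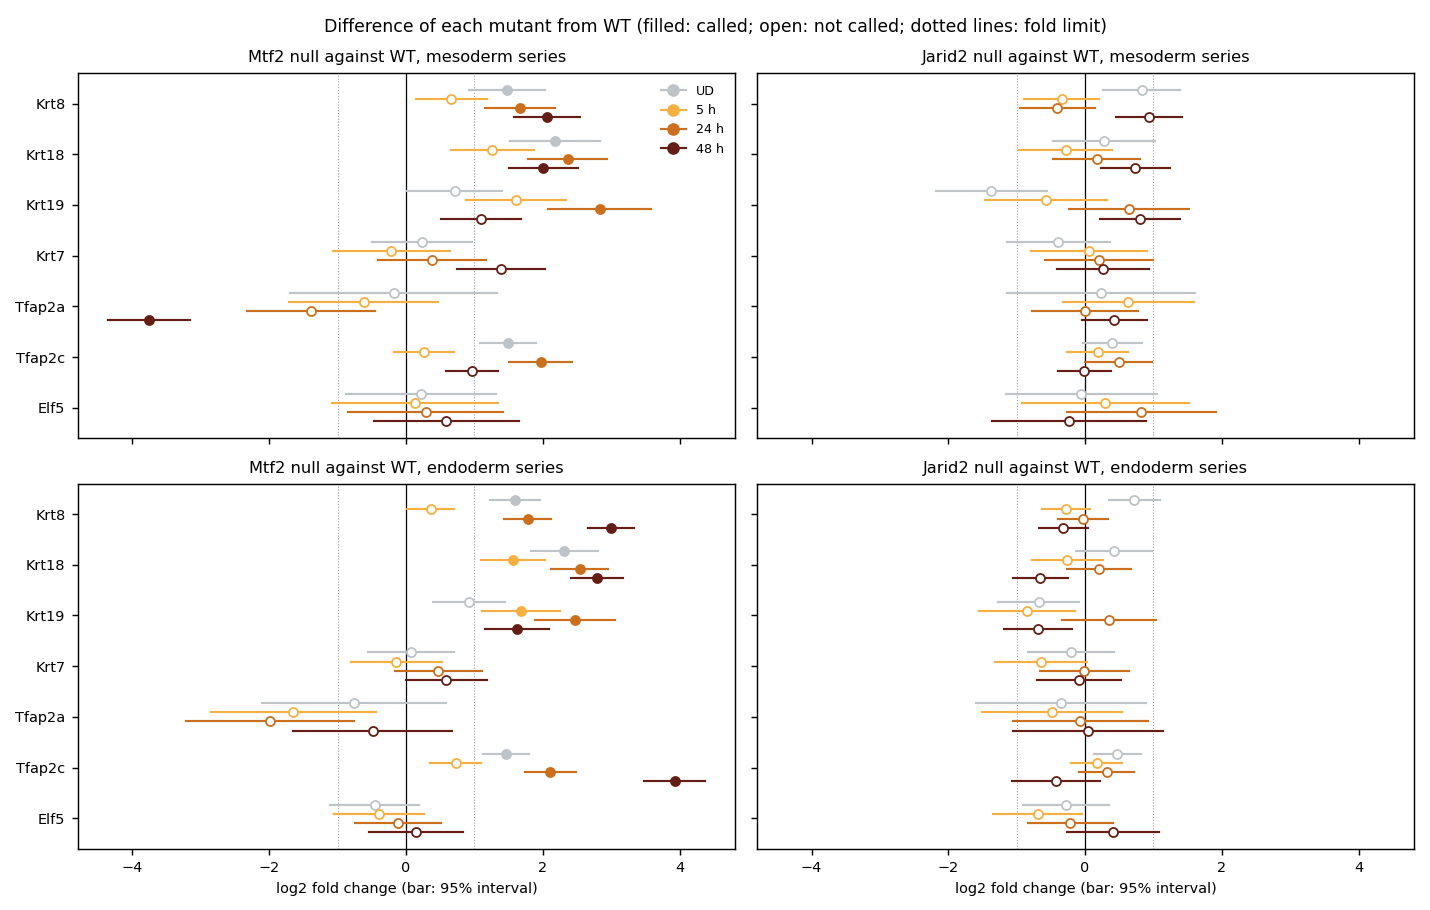
Log2 differences from WT of the 7 genes in the 2 mutants at each time of the mesoderm and endoderm series, with 95% intervals from the edgeR fit. In Mtf2 null the endoderm points for Krt8 (2.99) and Tfap2c (3.93) at 48 hours stand farthest above 0 and mesoderm Tfap2a (−3.76) farthest below it; no Jarid2 null point was called.

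Whether the genotype difference itself changed between undifferentiated cells and 48 hours was tested with an interaction term. In the endoderm series the Mtf2 null difference grew by 1.40 ± 0.23 on the log2 scale for Krt8 (adjusted p = 1.2e-04) and by 2.47 ± 0.27 for Tfap2c (adjusted p = 1.4e-06), and these 2 of 7 genes were called where 5.24% of genes were. The Krt8 call was lost without the first WT undifferentiated library (1.29, adjusted p = 1.8e-03), the first Mtf2 null 48 hour library (1.18, adjusted p = 1.1e-03) or the first Mtf2 null undifferentiated library (1.26, adjusted p = 1.5e-03). Krt18, already 4.99 times higher in undifferentiated Mtf2 null cells, changed its difference by 0.48 ± 0.30 (95% interval −0.16 to 1.12). In the mesoderm series edgeR called none of the 7 in Mtf2 null, where 2.71% of genes were called and 2 of the 7 were at an unadjusted p below 0.05. Tfap2a came nearest (log2 −3.58 ± 0.83, adjusted p = 5.2e-03), and DESeq2 called 1 gene. No gene was called for Jarid2 null in either series, by edgeR or DESeq2, where 0.0545% (mesoderm) and 0.514% (endoderm) of genes were called; 1 and 3 of the 7 were at an unadjusted p below 0.05. Krt19 in mesoderm (2.18 ± 0.46, adjusted p = 0.020) and Krt8 (−1.04 ± 0.24, adjusted p = 0.011) and Krt18 (−1.08 ± 0.32, adjusted p = 0.049) in endoderm came nearest.

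The change from undifferentiated cells to 48 hours was then compared between the 2 protocols within a genotype. In WT the change was larger in mesoderm by 5.93 ± 0.75 for Tfap2a (adjusted p = 1.5e-06) and by 4.16 ± 0.31 for Tfap2c (adjusted p = 2.8e-11), 2 of 7 genes where 1.35% of 19601 genes were called. In Jarid2 null it was larger in mesoderm for 5 of 7 genes where 1.97% were called. These were Tfap2a (5.72 ± 0.72), Tfap2c (4.64 ± 0.30), Krt19 (2.59 ± 0.45), Krt8 (2.03 ± 0.30) and Krt18 (1.98 ± 0.38). The calls on Krt18 and Krt19 were lost in several repeats with 1 library left out, with log2 values of 1.75 to 2.15 and 2.40 to 2.76, and that on WT Tfap2a was lost without the first endoderm WT undifferentiated library (5.41, adjusted p = 1.7e-03). In Mtf2 null edgeR called none, where 0.617% were called and 3 of 7 genes were at an unadjusted p below 0.05; DESeq2 called 1. Tfap2c differed by 1.16 ± 0.24 (adjusted p = 3.2e-03). The protocols were run as separate series, so that protocol and series cannot be told apart, and the fit took the undifferentiated libraries of the 2 series as independent although same-numbered ones deviated together. Among the other trophoblast genes, the change in WT was larger in mesoderm for Gata2 (log2 5.70), and in Jarid2 null for Gata2 (6.44), Gata3 (5.33), Hand1 (5.10) and Esx1 (3.55). The change of the epithelial ETS factor Elf3 was also larger in mesoderm in both (2.11 and 1.59).

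The other lists showed what else was present where the keratins were high. Of 15 epithelial junction and identity genes, 11, 9, 8 and 7 were higher in Mtf2 null than in WT at the 4 times of the mesoderm series and 9, 10, 9 and 8 in the endoderm series, and none was lower. Of all genes tested, 2.78 to 6.47% were called upward at these times in the mesoderm series and 3.57 to 6.37% in the endoderm series. In undifferentiated cells of the mesoderm series they were led by the splicing factor Esrp1 (log2 3.53), the epithelial transcription factor Grhl2 (3.11) and the tight junction claudins Cldn7 (3.30) and Cldn4 (2.77). At 48 hours of the endoderm series they were led by the desmosomal plaque gene Dsp (2.77), Cldn6 (1.90), Cldn4 (1.75) and Dsc2 (1.68). Their summed level was 1290 to 1355 CPM in undifferentiated Mtf2 null cells of the mesoderm series and 435 to 563 CPM in WT, and at 48 hours 1770 to 1925 CPM against 1213 to 1328 CPM. In both series the Mtf2 null difference had become smaller by 48 hours for 6 of the 15 genes and larger for 1, by the interaction term, where 1.66 and 1.05% of all genes in mesoderm and 2.56 and 2.68% in endoderm were called downward and upward. These included Esrp1 (log2 −2.25 in mesoderm and −3.10 in endoderm), Grhl2 (−2.07 and −2.18) and Cldn7 (−1.96 and −2.15), and Pkp2 (1.00, mesoderm) and Dsp (2.28, endoderm) went the other way. At 48 hours of the endoderm series the sums were 1741 to 1839 CPM in Mtf2 null, 1083 to 1182 CPM in WT and 1073 to 1225 CPM in Jarid2 null.

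Extraembryonic endoderm markers moved with the keratins in Mtf2 null cells. Of 7 listed markers 5 passed the filter in each series, and 4 of them were higher in undifferentiated Mtf2 null cells and 5 at 48 hours in both, where 6.47 and 6.23% of all genes undifferentiated and 3.76 and 6.37% at 48 hours were called upward in mesoderm and endoderm. In the 48 hour endoderm libraries they were led by the thyroid hormone carrier Ttr (log2 9.58) and the endocytic receptor genes Amn (7.11) and Cubn (6.69), with Pth1r at 6.94. Their summed level was 1394 to 1442 CPM in Mtf2 null, 14.6 to 17.0 CPM in WT and 12.0 to 12.2 CPM in Jarid2 null. At 48 hours of the mesoderm series it was 804.6 to 956.8 CPM against 21.0 to 22.0 CPM. Of 6 definitive endoderm genes, 4 were tested in the endoderm series and 2 were higher at 48 hours, Sox17 (6.85) and Foxa2 (6.54), which visceral endoderm also makes, and 1 was lower, Trh (−2.26). In bulk samples more cells of a type and more transcript per cell cannot be told apart, and the part of extraembryonic endoderm cells in the keratin levels was not tested.

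Calls between Mtf2 null and WT among the other trophoblast genes were too few to be set apart from the share over all genes (5.72 to 11.1%). None of the 9 tested in the mesoderm series was called by edgeR at any time, with 6, 5, 2 and 5 at an unadjusted p below 0.05, and in the endoderm series 0, 1, 0 and 2 of 10 were higher at the 4 times, at 48 hours Tead4 (log2 1.80) and Ascl2 (1.31). Their summed level at 48 hours was 137.8 to 143.2 CPM in Mtf2 null and 99.3 to 114.5 CPM in WT mesoderm libraries. Of the other keratins, 4 of 13 were tested in the mesoderm series and 6 of 13 in the endoderm series. Krt23 was the largest difference among them, at log2 7.04 in mesoderm and 8.18 in endoderm at 48 hours.

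Over the 24 genotype and time means of the directed series, centred within each series, the gene most like Krt8 was Krt18 (Pearson r = 0.943 of log2 CPM, among 18017 genes), followed by the actin severing gene Gsn (0.934) and the angiomotin gene Amot (0.930). Krt18 was most like Amot (0.969), Stxbp2 (0.943) and Krt8. Krt19 was most like Podxl (0.939), which encodes a sialomucin of the apical cell surface, Timp3 (0.926) and Slc44a4 (0.920). Krt7 was most like Rhou and Slc44a3 (both 0.870) and Ubald1 (0.865), and Tfap2a like Meis2 (0.921), Egfl6 (0.892) and Smad9 (0.864). Hpse (0.859) and Plce1 (0.858) were among the genes most like Tfap2c. Elf5 was most like AC165960.2 (0.785), Gm26805 (0.772) and Vmn1r12 (0.762) at levels near the filter. Among the members, Krt18 and Krt19 had r = 0.903, Krt8 and Krt19 0.844, Krt8 and Tfap2c 0.612, Krt8 and Tfap2a 0.178, and Tfap2a and Tfap2c −0.012. The points share libraries, and the values are descriptions with no test.

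The bulk EB series had 1 value for each line and day, from columns of 3005707 to 22944105 reads. The days of a line stood in for its replicates. The p-values of this series therefore measure how line differences varied over days, and not the spread between repeat cultures. Transcripts of the targeted genes were not clearly lower where the labels give a null line. Mtf2 was at 315, 226, 229.5 and 164 CPM on days 0, 2, 4 and 7 in the line labelled Mtf2 null against 414, 439.6, 325 and 386 CPM in Pcl1-3 WT (limma log2 −0.77, adjusted p = 0.077). The lowest Mtf2 value on day 0, 127 CPM, belonged to the monolayer labelled Jarid2 null. Jarid2 and Eed transcripts were not called between the EBs labelled null for them and their WT lines (log2 −0.11 and 0.10, both adjusted p = 0.80). The column names give day 0 as monolayer and the later days as EBs, so that day and kind of culture cannot be told apart at day 0. Where a course over all days is given below as that of EBs, its day 0 value is from monolayer. The labels are used below only as names of libraries, and results are given with and without day 0.

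Krt8 and Krt18 had their highest level on day 7 in every line. On days 0, 2, 4 and 7 Krt8 was at 4.05, 4.59, 36.2 and 401 CPM in Pcl1-3 WT and at 24.3, 156, 317 and 662 CPM in EBs labelled Mtf2 null. Krt18 was at 10.1, 6.83, 69.7 and 260.4 CPM in Pcl1-3 WT and 15, 105, 267 and 567 CPM in EBs labelled Mtf2 null. The libraries labelled Mtf2 null were higher on all 4 days for both genes, and most so on day 2. The share of all genes higher on all 4 days was not counted. Of the 7 genes, limma called Krt8 (log2 2.82 ± 0.84, adjusted p = 0.024) and Tfap2a (2.23 ± 0.40, adjusted p = 7.9e-04) at an adjusted p below 0.05, where 18.7% of 15850 genes were called. The Krt8 call was lost without day 2 (2.11, adjusted p = 0.15) or day 4 (2.72, adjusted p = 0.12), and in a fit of only these lines without day 0 (2.95, adjusted p = 0.058). Krt18 was not called with all days (1.87 ± 0.80, adjusted p = 0.11), and was without day 0 (2.31, adjusted p = 0.011). Krt7 was called only without day 0 (1.79, adjusted p = 0.015), on which day the monolayer labelled Mtf2 null was lower (1.86 against 4.7 CPM).

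The day 0 monolayer libraries labelled Jarid2 null and Eed null held more keratin transcript than the day 2 EBs of the same lines. Krt8 was at 170.0, 21.5, 213 and 384 CPM in EBs labelled Jarid2 null and at 8.37, 5.98, 234 and 486 CPM in JM8. It was at 395, 43.8, 253 and 713 CPM in EBs labelled Eed null and at 67.2, 14.5, 668 and 793 CPM in J1. In both lines labelled null the level on day 0 was higher than on day 2, and J1 also had more on day 0 than on day 2. The day 0 keratin signal extended to Krt18 (156 and 385 CPM), Krt19 (46.3 and 239 CPM) and Krt7 (27.2 and 52.1 CPM). All WT lines also had more Krt18, Krt19 and Krt7 on day 0 than on day 2, for example Krt19 at 15.2 against 6.13 CPM in JM8. The line labelled Mtf2 null had less of each. The Krt8 difference from WT was log2 1.40 (adjusted p = 0.28) in EBs labelled Jarid2 null and 0.64 (adjusted p = 0.66) in those labelled Eed null, and without day 0 it was 0.45 and 0.01. Without day 0 Krt7 was lower in EBs labelled Jarid2 null than in JM8 (log2 −2.27, adjusted p = 4.3e-03), at 0.256, 1.32 and 7.53 against 1.56, 8.35 and 57.2 CPM. With day 0 it was not called (−1.13, adjusted p = 0.42).

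Tfap2a was the 1 gene of the 7 that was higher on all 4 days in each labelled null line than in its WT line. It was at 1.48, 1.91, 15.3 and 20.1 CPM in EBs labelled Mtf2 null against 1.08, 0.141, 1.65 and 1.45 CPM in Pcl1-3 WT. In JM8 the levels were 0.548, 0.953, 2.2 and 3.06 CPM, and EBs labelled Jarid2 null held 2.41, 2.99, 5.76 and 6.98 CPM. In J1 they were 1.07, 1.37, 5.94 and 2.75 CPM, and EBs labelled Eed null held 9.8, 10.1, 21.6 and 24.6 CPM. The log2 differences were 2.23 ± 0.40 (adjusted p = 7.9e-04), 1.32 ± 0.40 (adjusted p = 0.032) and 2.55 ± 0.40 (adjusted p = 9.1e-04), and without day 0 they were 2.85, 1.24 and 2.46, still called in the fit of all lines. In a fit of only the compared lines without day 0, that of EBs labelled Eed null was not called (2.48, adjusted p = 0.054). In EBs labelled Jarid2 null the call was lost without day 2, 4 or 7 (adjusted p = 0.11, 0.14 and 0.075), and none of the 3 calls held without the day term (adjusted p = 0.087, 0.40 and 0.079). Backgrounds were 15% of genes for EBs labelled Jarid2 null and 11.5% for those labelled Eed null. The share of all genes that kept 1 direction on all 4 days was not counted. Some WT levels of Tfap2a rested on few reads, 1 in Pcl1-3 WT on day 2 and 7 in JM8 and 6 in J1 on day 0. In single cells Tfap2a was below WT in Mtf2 null and Jarid2 null on days 0, 4 and 7. It was above WT in both on day 10 and in Eed null on every day.

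Tfap2c was lower on day 7 than on day 0 in JM8, J1 and the lines labelled Jarid2 null and Eed null. It was at 104, 21.9, 29.5 and 24.3 CPM in EBs labelled Jarid2 null and at 163, 94.9, 51.4 and 87.5 CPM in JM8, lower on all 4 days (log2 −1.34 ± 0.38, adjusted p = 0.021, and −1.56 without day 0, adjusted p = 2.7e-03), a call lost without day 2, 4 or 7 (adjusted p = 0.18, 0.078 and 0.11). It was at 89.5, 69.8, 49.3 and 42.1 CPM in EBs labelled Eed null and at 75, 36.9, 20.2 and 14.8 CPM in J1, higher on all 4 days (log2 0.98 ± 0.38, adjusted p = 0.096, and 1.23 without day 0, adjusted p = 0.021). It was at 32.8 to 53.1 CPM in EBs labelled Mtf2 null and at 65 to 83.6 CPM in Pcl1-3 WT (log2 −0.70, adjusted p = 0.21). Elf5 was between 0.514 and 3.21 CPM throughout. Of all genes tested, 18.7%, 15% and 11.5% were called in either direction in EBs labelled Mtf2 null, Jarid2 null and Eed null, respectively. Extraembryonic endoderm markers were higher for 6 of 7 genes in EBs labelled Mtf2 null, led by Cubn (log2 6.50) and Afp (5.41), for 4 of 7 in those labelled Jarid2 null and by limma for none in those labelled Eed null, with 0 of 7 at an unadjusted p below 0.05. Their part in the keratin levels was not tested.

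**Figure D3:**
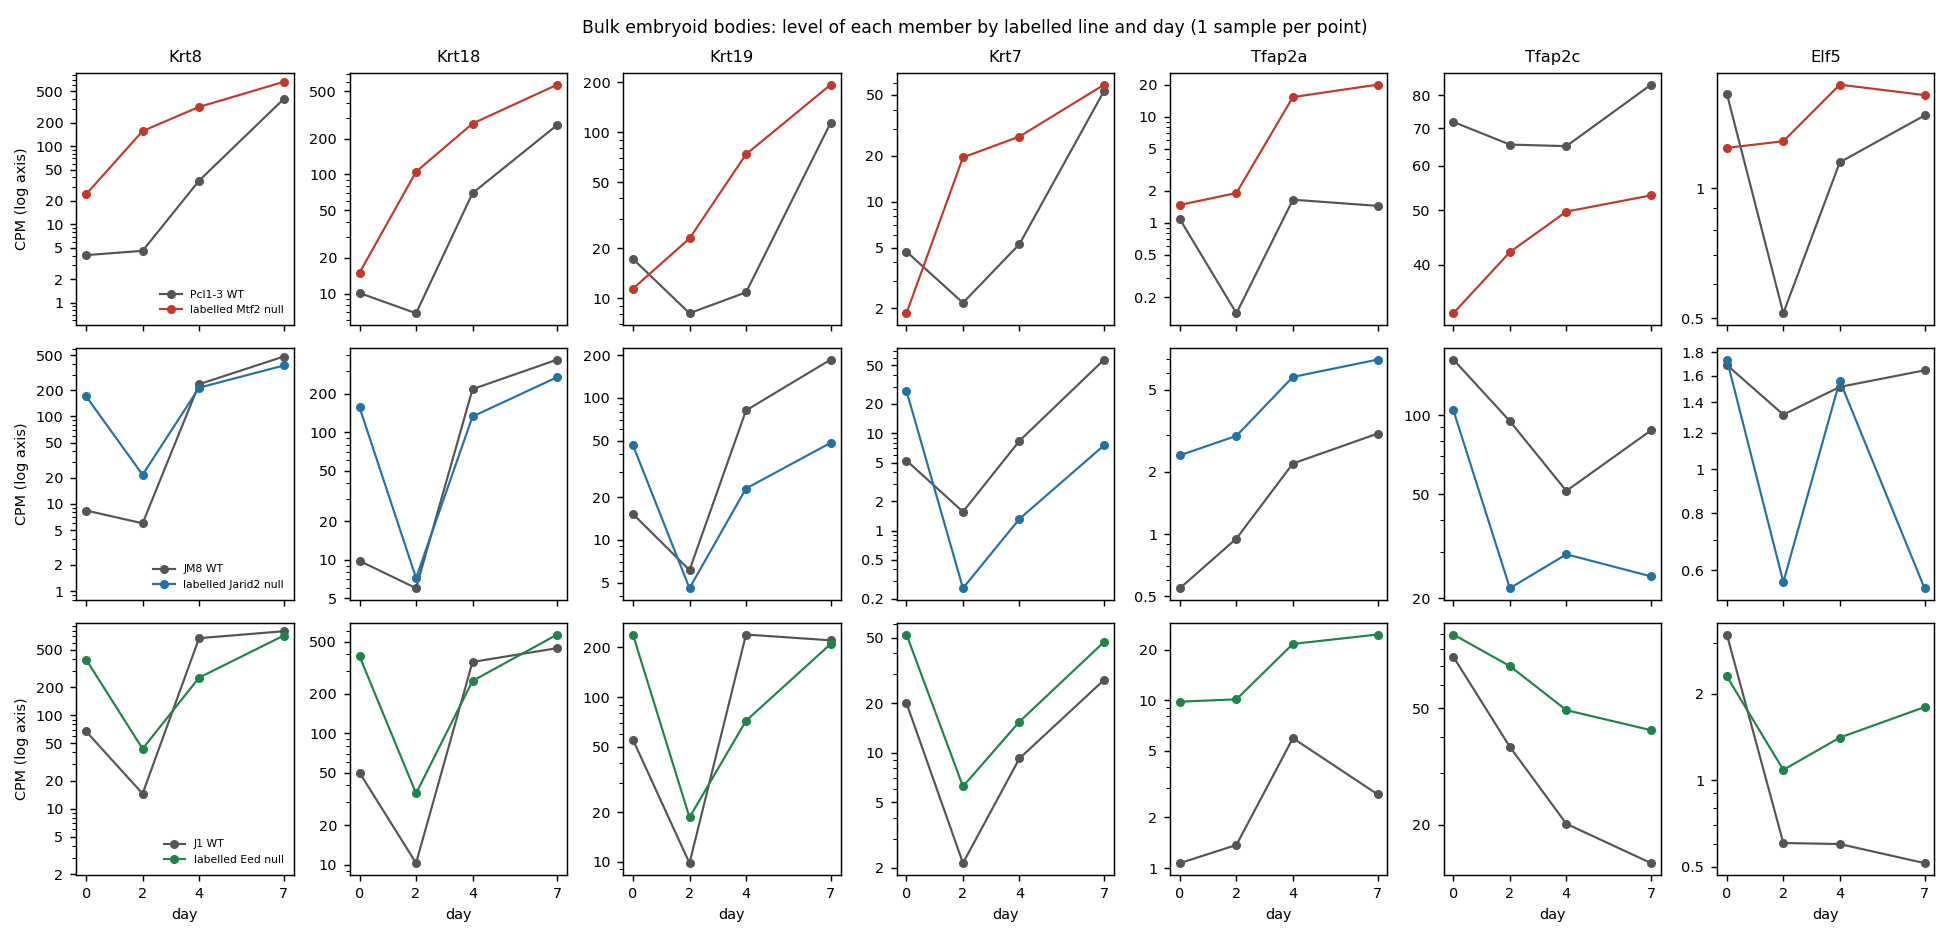
Levels of the 7 genes in bulk EBs, in CPM on a log axis against day, with 1 value for each line and day and each labelled null line beside its WT line. Day 0 is monolayer culture. Krt8 on day 0 was 395 CPM in the line labelled Eed null and 170.0 CPM in that labelled Jarid2 null, above the same lines on day 2. Tfap2a lies above the WT line on all days in each of the 3 pairs.

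Single cells came as 16 libraries and 22 clusters of the authors' annotation (resolution 2.5), with 202 to 347 cells in a library and a median of 6650 UMIs per cell. The targeted genes were below WT where labelled, with Mtf2 at 53.7 to 61.1 UMI CPM in Mtf2 null against 365 to 793 in WT, Jarid2 at 115 to 185 against 215 to 594, and Eed at 1.3 to 11.5 against 115 to 478. On day 7, however, Jarid2 was at 185 UMI CPM in Jarid2 null and 184 in Mtf2 null. With 1 library for each genotype and day there is no test, and the intervals below are exact 95% Poisson intervals that cover counting error only. All 16 libraries used the same set of 384 well barcodes, so barcodes shared between libraries do not mark shared cells. UMI CPM are the UMIs of a gene summed over the cells of a library or cluster and scaled in the same way to the UMIs of all genes in those cells.

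Krt8 was at 7.16 to 15.9 UMI CPM on day 0 and reached its highest level in Mtf2 null on day 7. It was at 11.4, 15.4, 116 and 197 UMI CPM on days 0, 4, 7 and 10 in WT, 7.97, 22.7, 362 and 250.0 in Mtf2 null, 7.16, 6.34, 25.2 and 43.2 in Jarid2 null and 15.9, 87.3, 166 and 149 in Eed null. On day 0 the interval of Eed null (11.9 to 20.7) lay above those of Mtf2 null (5.41 to 11.3) and Jarid2 null (4.54 to 10.7), and on day 4 those of WT (10.6 to 21.6) and Mtf2 null (17.4 to 29.1) overlapped. On day 7 the intervals did not overlap, with 339 to 387 in Mtf2 null, 149.9 to 183 in Eed null, 102 to 131 in WT and 18.6 to 33.4 in Jarid2 null. A Krt8 UMI was seen in 54.1% of Mtf2 null, 42% of Eed null, 34.8% of WT and 9.60% of Jarid2 null cells on day 7. After thinning each cell to 2500 UMIs, with 22 to 46 cells of a day 7 library left out as shallower, the shares were 39.6%, 27.6%, 19.0% and 5.81%. In cells of cluster 15, a cluster of neural genes chosen as a background, the thinned share for Krt8 was 11.8%, and 6 of 16 libraries had an interval above it. Other libraries lay below it, with 2.15% in WT and 2.07% in Mtf2 null on day 0 and 2.79% in WT on day 4. The share in cluster 15 is therefore no measure of free RNA, and the count above it does not separate expression from background. Before thinning, the median cell of cluster 15 held 5860 UMIs and that of the day 7 libraries 5272 to 6313 UMIs. The Eed null level on day 4 was raised by 1 cell, which held 90 of 197 Krt8 UMIs. The thinned share in that library was 13.7%, against 2.79% in WT, 5.05% in Mtf2 null and 1.72% in Jarid2 null on day 4.

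The other keratins had the same order of genotypes on day 7 except for Krt19 and Krt7. Krt18 was at 82.7 UMI CPM in Mtf2 null (71.6 to 95), 47.5 in Eed null (39.1 to 57.2), 23.5 in WT (17.5 to 31) and 11.0 in Jarid2 null (6.82 to 16.8). Krt19 was highest in Eed null on days 0, 4 and 7 (7.95, 19.1 and 26.7 UMI CPM) and in Mtf2 null on day 10 (28.2, against 20.9 in Eed null with overlapping intervals). Krt7 did not exceed 10.2 UMI CPM, the Eed null value on day 7. Thinned shares were above that of cluster 15 in 4 of 16 libraries for Krt18 (5.04%), 5 for Krt19 (0.84%) and 13 for Krt7, where no thinned cell of that cluster had a Krt7 UMI, so that a single cell suffices. As for Krt8, these counts do not separate expression from background.

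Tfap2a was highest in Eed null on every day. It was at 14.1, 18.2, 35.7 and 28.4 UMI CPM in Eed null, 2.68, 7.47, 15.1 and 8.58 in WT, 1.29, 4.39, 6.23 and 19 in Mtf2 null, and 0.934, 3.57, 6.3 and 13.3 in Jarid2 null. Intervals of Eed null lay above those of WT on all 4 days and overlapped on day 10 with those of Mtf2 null (20.1 to 38.9 against 13.6 to 25.8). Tfap2c had another order of genotypes. In Mtf2 null it was at 173 and 108 UMI CPM on days 0 and 4 and at 10.8 and 13.9 on days 7 and 10. In Jarid2 null it was at 77.6, 136, 93.9 and 100.3, in WT at 88, 46.2, 58.9 and 52.9, and in Eed null at 98.9, 110.3, 53.5 and 31.3 UMI CPM. The thinned share of cells with a Tfap2c UMI in Mtf2 null was 34% on day 0 and 2.68% on day 7, and in WT 20.0% and 13.7%. On day 10, 1 Eed null cell held 23 of the 42 Tfap2c UMIs.

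Elf5 had no row among the genes kept. In the count files of all 6144 wells it had 6 UMIs in 5 wells, 4 of the UMIs in Eed null on day 0, 1 in Eed null on day 7 and 1 in WT on day 0.

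**Figure D4:**
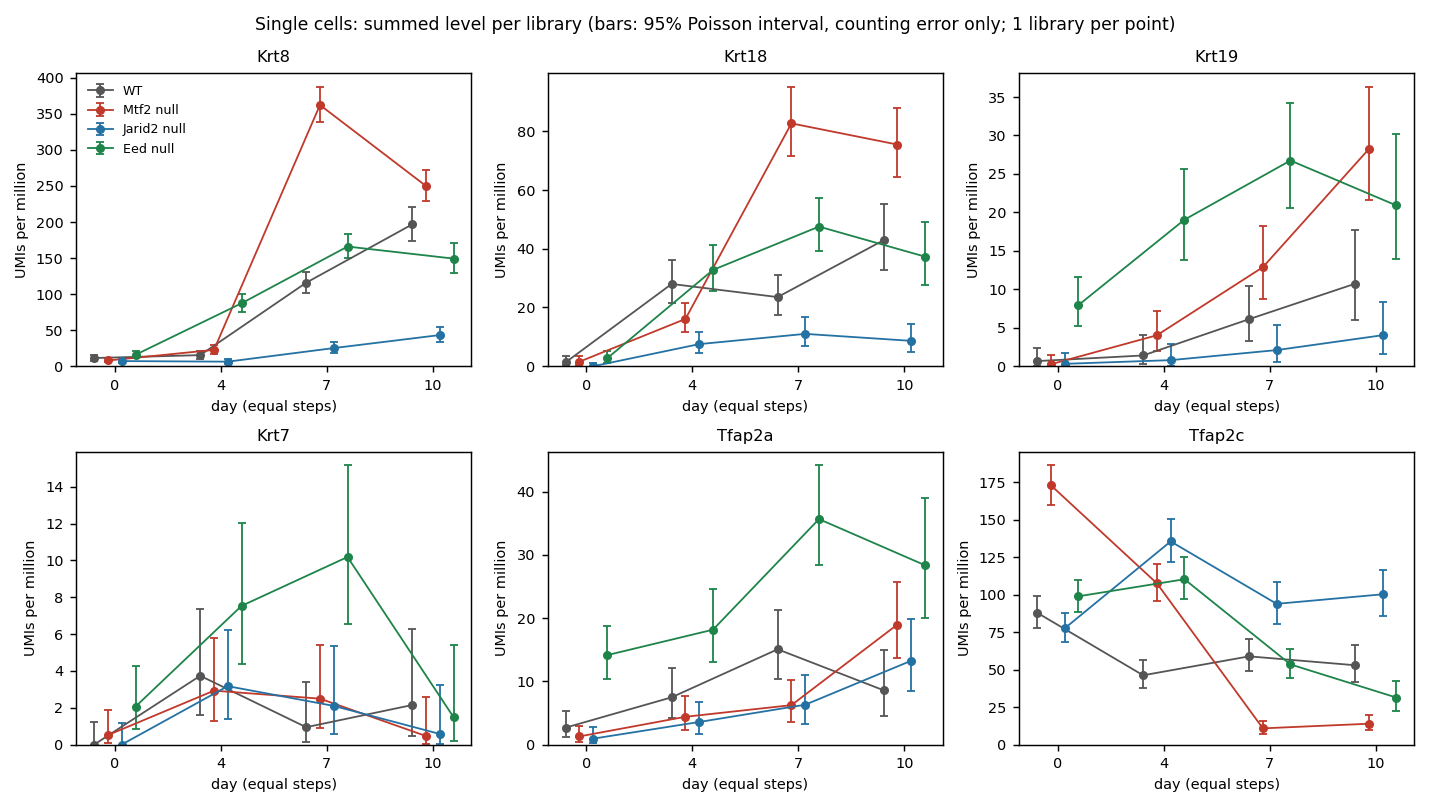
Levels of the 6 genes with a row in the UMI table, in UMI CPM against day of EB differentiation for the 4 genotypes, 1 library each, with exact 95% Poisson intervals for counting error. Krt8 on day 7 was 362 in Mtf2 null and 25.2 in Jarid2 null, and Tfap2c in Mtf2 null was 173 on day 0 and 10.8 on day 7.

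Across clusters, Krt8 and Krt18 were concentrated in a few. Cluster 21, which the authors class as endodermal, had the highest level of both, Krt8 at 651 UMI CPM (576 to 733) and Krt18 at 158 (122 to 201) in 47 cells. Cluster 4, which they class as mesodermal, followed with Krt8 at 496 (467 to 527) and Krt18 at 109 (95.7 to 124) in 324 cells. A Krt8 UMI was seen in 85.1% of cells of cluster 21 and 66.7% of cells of cluster 4, and in 71.1% and 54.6% after thinning. Cluster 4 held 35% of all Krt8 UMIs (1083 of 3097) and 26.9% of Krt18 UMIs with 6.55% of the cells, and 0.46% of Tfap2c UMIs. Next for Krt8 came clusters 16 (258 UMI CPM), 20 (190), 11 (172), 14 (141) and 13 (115), where 11 and 16 are among the classes called ectodermal. The clusters were made from expression that included these genes, so their levels are a description.

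Cluster 21 also held the definitive endoderm list at 1079 UMI CPM summed, the extraembryonic endoderm list at 984 and the junction list at 2223. Its levels included Cubn at 388, Ttr at 357, Sox17 at 361 and Foxa2 at 211 UMI CPM. Sox17 and Foxa2 are on the definitive endoderm list but visceral endoderm also makes them, so these levels do not tell definitive from visceral endoderm. Cluster 4 held the cardiac mesoderm list at 758 and the junction list at 520 UMI CPM. Its other trophoblast list summed to 946, of which Hand1, which cardiac and lateral mesoderm also make, gave 750.

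Within cluster 4 the genotypes differed in keratin level. Krt8 was at 646 UMI CPM (600 to 694) in 159 Mtf2 null cells, 407 (363 to 456) in 122 WT cells and 147 (106 to 198) in 40 Jarid2 null cells. Krt18 was at 144, 82.0 and 44.4 UMI CPM and Krt19 at 28.3, 17.5 and 13.7 in the same order. Mtf2 null cells had the highest value in clusters 11 and 14 as well, with Krt8 at 232 (143 cells) against 54.2 in Jarid2 null (86 cells) in cluster 11, and at 203 against 111 in WT and 52.9 in Jarid2 null in cluster 14. In cluster 21 the 33 Mtf2 null cells had Krt8 at 911 and Krt18 at 217 UMI CPM, and no other genotype reached 20 cells. Each genotype and day is 1 library, and these values mix days.

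Tfap2c was highest in other clusters than Krt8, while the clusters of Tfap2a overlapped with those of Krt8. Tfap2c was highest in cluster 17 (274 UMI CPM, 242 to 310), where 72.8% of 125 cells had a UMI and 100 cells were Jarid2 null, and in cluster 0 (185), where 60.6% of 386 cells had one. Cluster 17 also held the germ cell list at 810 and the naive pluripotency list at 731 UMI CPM, and cluster 0, of which 302 cells were Mtf2 null cells of day 0, held the naive list at 885. Tfap2c had 0 UMIs in clusters 18 and 19. Tfap2a was highest in clusters 15 (31.1 UMI CPM), 13 (30.3), 10 (28.1), 16 (25) and 11 (21.8), whose intervals overlapped, and 16, 11 and 13 were also among the clusters next for Krt8. Of these, cluster 13 had 165 of 226 cells from Eed null on day 10 and cluster 16 had 112 of 134 from Eed null on day 7. Krt19 was highest in clusters 21 (47.9), 9 (33.3) and 20 (25.1), and Krt7 in clusters 10 (9.67), 16 (8.92) and 9 (8.32).

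Over the 22 clusters, Krt8 was most like Efnb1 (r = 0.938 of log2(UMI CPM + 10)), Dsp (0.931) and Msx2 (0.928), and Krt18 was most like Lmbrd1 (0.937), Krt8 (0.926) and Podxl (0.884). Krt19 was most like Tusc3 (0.869), Krt18 and Tinagl1 (both 0.853), and Tfap2a like Hmgn3 (0.866), Crabp2 (0.857) and Fam117b (0.833). Tfap2c was most like the pluripotency gene Nanog (0.919), Rif1 (0.911) and Sox15 (0.909), and its correlation with Krt8 was −0.509, against 0.518 between Tfap2a and Krt8. Krt7 was most like Dazl (0.759), Pigp (0.747) and Aga (0.731) at levels of a few UMIs. In single cells, 332 cells held UMIs of both Krt8 and Krt18, 31.9% of the 1040 cells with Krt8 and 58.5% of those with Krt18. Those cells had a median of 7610 UMIs against 6650 in all cells, so depth moved with this overlap.

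**Figure D5:**
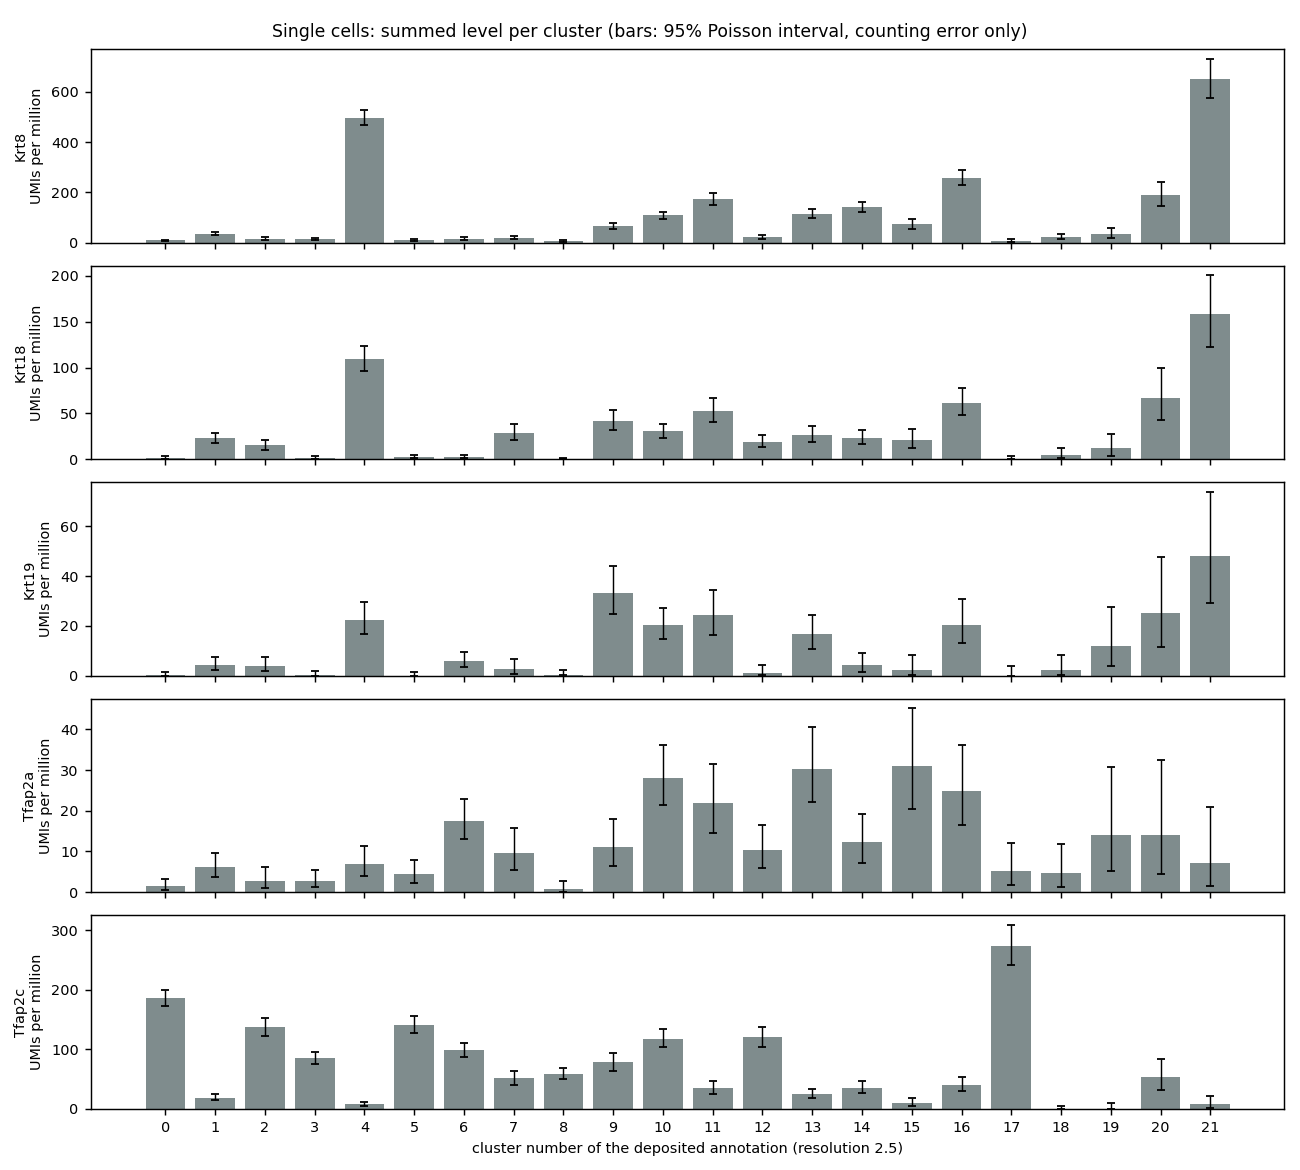
Levels of Krt8, Krt18, Krt19, Tfap2a and Tfap2c in the 22 clusters, in UMI CPM with exact 95% Poisson intervals for counting error. Krt8 and Krt18 are highest in clusters 21 and 4, Tfap2c in clusters 17 and 0, and Tfap2a in clusters 15, 13, 10 and 16.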

How the data were processed

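Ribosomal RNA-depleted libraries of the directed series were quantified with Salmon by the authors and deposited as estimated counts per gene, which were rounded to whole numbers here (74.9% and 73.1% of values above 0 were whole before). The bulk EB table was deposited as a signal per gene, Salmon read counts that the authors divided by DESeq2 size factors, and single cells were deposited by the authors as UMI counts per gene and cell (SORT-seq) with their cluster annotation. For single cells the authors aligned reads with Bowtie2, counted them with HTSeq, removed cells of few genes with Scater and clustered with Seurat, and all tables used GRCm38/mm10. Columns of 1 line and day of the bulk EBs were averaged to 1 sample.

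Estimated counts were filtered with filterByExpr (minimum count 10), scaled by TMM and fitted with edgeR 4.0.16 (glmQLFit, glmQLFTest) over all 24 libraries of a series, with Benjamini-Hochberg adjustment over all genes tested. The comparison between protocols used both series. Calls needed an adjusted p below 0.001 and a log2 difference above 1 in size. For the bulk EBs, log2(CPM + a prior count of 2) of genes with at least 1 CPM in 4 samples was fitted with limma 3.58.1 (trend) over all 24 samples with line and day as terms, and called at an adjusted p below 0.05. Whole reads could be recovered from the bulk EB values in 45 of 46 columns (100% of values whole within 0.02), and edgeR on those reads was an alternative. UMI counts were summed per library, cluster or genotype in a cluster with exact Poisson intervals, and shares of cells were also taken after thinning each cell to 2500 UMIs, which left out 492 shallower cells. Doublets were not called here; the cells are those the authors kept, with UMIs between 1143 and 105019 per cell. Intervals and floors cover counting error only, and 3 counts were taken as the floor.

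The 7 genes and the other gene lists were chosen with earlier results of these data known, so that no list is independent evidence. Named genes were the 7, the 3 genes most like each by correlation (1 of which is not reported here), and up to 4 called genes of a list in a comparison, largest change first. Replicate numbers did not pair the libraries of different genotypes within a series, while same-numbered undifferentiated libraries of the 2 series deviated together. Same-group libraries differed by 2.52 to 20.2 times the counting noise. Alternatives were other scalings, filters and prior counts, DESeq2 1.42.0, leaving out each library or day, and a replicate block. The fits were tested on simulated data. R 4.3.3 and Python 3.11.15 were used.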

Additional observations from a re-analysis of the deposited data

Results flagged for a closer look

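In the endoderm series the difference between Mtf2 null and WT cells changed from undifferentiated cells to 48 hours, by the interaction term of the edgeR fit, for Krt8 (log2 1.40, adjusted p = 1.2e-04) and Tfap2c (2.47, adjusted p = 1.4e-06). The change over 48 hours differed between the mesoderm and endoderm protocols in WT for Tfap2a (5.93, adjusted p = 1.5e-06) and Tfap2c (4.16, adjusted p = 2.8e-11). It differed in Jarid2 null for Krt8 (2.03, adjusted p = 1.4e-05), Krt18 (1.98, adjusted p = 5.2e-04), Krt19 (2.59, adjusted p = 1.7e-04), Tfap2a (5.72, adjusted p = 8.5e-07) and Tfap2c (4.64, adjusted p = 6.6e-13). In the count files of all wells, used because the annotated gene table has no Elf5 row, Elf5 had 4 UMIs in Eed null cells of day 0, above the 1 UMI of WT day 0 and the 3 counts taken as the floor. No library stood apart from the others of its group in the 21 groups of 4 undifferentiated libraries tested with Dixon's ratio. Chance would flag about 5% of groups if the libraries were independent. Same-numbered libraries of both series deviated together, so a deviating replicate could appear in both and be missed, and no conclusion is drawn from this test.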

How the results depend on the processing

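No called value changed its direction under the alternatives run. With an adjusted p below 0.05 and no fold limit, calls went from 10 to 19 of 56 between genotypes in the mesoderm series, from 3 to 7 of 12 in undifferentiated cells of both series, from 16 to 30 and from 12 to 26 of 63 over time in the mesoderm and endoderm series, and from 0 to 2 and from 2 to 4 of 14 for the change of the genotype difference. That change in the mesoderm series gave 2 calls with no filter on low counts and 1 with DESeq2. In bulk EBs, 5 of 21 calls became 0 without the day term, 9, 2, 2 and 3 without day 0, 2, 4 or 7, and 9 in fits of only the 8 samples of 2 lines, an alternative chosen after seeing the data; with those samples and without day 0 they were 7, also chosen after seeing the data. The causes were not tested, except that fits without a day or with 8 samples use fewer samples. The share of all genes called under each alternative is not given here. These counts therefore describe only how the calls depend on the settings, and cannot be set against a background. Leaving out 1 library gave 9 to 13 calls between genotypes in the mesoderm and 12 to 13 in the endoderm series, 3 to 4 in undifferentiated cells, 13 to 17 and 11 to 13 over time, 0 and 1 to 2 for the change of the genotype difference, and 5 to 7 between protocols. Within a series, same-numbered mutant and WT libraries correlated at −0.149 to 0.267 in their deviations over 16 pairs, 3 of them above 0.1, so the numbers were not taken as pairs. With a replicate block the counts were 10, 13, 3, 15, 12, 0, 2 and 7 in the same order. Summing same-numbered undifferentiated libraries of both series, chosen after seeing the data, left Krt8, Krt18 and Tfap2c called. Single-cell levels at or above 20 UMI CPM numbered 37 of 96 by summed UMIs and 34 by the mean over cells. Genes below 1 CPM, such as undifferentiated Tfap2a, rest on at most about 17 reads, and Elf5 cannot be followed in single cells at this depth.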
